A study of Homo sapiens with 9 samples.

Results

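The genes of glutathione supply and lipid peroxide defence were followed in TC71 cells, a human Ewing sarcoma line, that had spread from a tumour under the skin of mice. The members were the 10 rows of the count table with the symbols GPX4, SLC7A11, GCLC, GCLM, GSS, AIFM2, NQO1, TXNRD1, ACSL4 and LPCAT3, out of 34922 rows for genes, and all 10 passed the filter on low counts. Per the series' design text, 100 cultured cells in Matrigel were placed in the flank of NSG mice, an immunodeficient strain that lacks lymphocytes but keeps its own myeloid cells, and the cells were recovered by flow cytometry from the flank tumour, lungs and marrow when tumours measured 1.5 cm across. The labels give 4 libraries from bone marrow metastases, 4 from lung metastases and 1 from a primary tumour. All libraries carry the same line and no added treatment is named, and the labels do not tie libraries to mice, so the p-values here reflect the spread between these samples, which may be technical. The series' title concerns polyamine depletion and ferroptosis, and for these genes the libraries allow the question of whether tumour cells at different sites hold different amounts of their transcripts.

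Ferroptosis is cell death by iron-dependent peroxidation of membrane lipids. Cystine taken up by SLC7A11 is the source of cysteine for glutathione, which is built by glutamate-cysteine ligase (catalytic subunit GCLC, modifier subunit GCLM) and by glutathione synthetase GSS, and GPX4 spends glutathione to reduce lipid peroxides to alcohols. AIFM2, also called FSP1, protects membranes without glutathione by reducing ubiquinone, NQO1 is another quinone reductase, and TXNRD1 keeps cytosolic thioredoxin reduced. GPX4 and TXNRD1 are both selenoproteins. ACSL4 and LPCAT3 work in the opposite direction, since they load polyunsaturated fatty acids into the phospholipids that are peroxidised. NRF2, a transcription factor that KEAP1 and CUL3 send for degradation, activates SLC7A11, GCLC, GCLM, TXNRD1 and NQO1 through antioxidant response elements.

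The promoter sequences are shown because several members are known NRF2 targets, so a reader can see which of them share the letters of that element near a start site and set this against their levels. RefSeq windows on GRCh38.p14, from 250 bases before to 50 after a start site, were at hand for 8 of the 10 members (11 windows). No window was at hand for SLC7A11 or GSS, so their promoters were not searched. Sequence outside the windows was not searched for any member. A window without a match, as for GCLC, therefore does not show that the gene lacks the element. The core TGACNNNGC, searched on both strands, was found in 4 of the 11 windows (36.4%), those of GCLM, AIFM2 and TXNRD1, and in 13.3% of all 35116 windows. The variant TGAGNNNGC was found in 4 of the 11 windows (GCLM, LPCAT3, TXNRD1 and NQO1) and in 18.3% of all windows. In the sequences below the 9 capital letters are the TGACNNNGC match, with 10 bases on each side, read 5′ to 3′ on the strand named.
GCLM, chr1:93909446-93909474, plus strand, 34 bases before the start site of a gene on the minus strand: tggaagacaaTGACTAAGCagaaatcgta
AIFM2, chr10:70132829-70132857, plus strand, 22 bases before the start site of a gene on the minus strand: gggcggggcgTGACTCAGCactcgtgctg
TXNRD1, chr12:104286920-104286948, minus strand, 102 bases before the downstream start site of a gene on the plus strand: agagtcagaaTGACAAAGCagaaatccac
TXNRD1, chr12:104215670-104215698, plus strand, 99 bases before the upstream start site: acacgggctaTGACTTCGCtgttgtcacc
TXNRD1, chr12:104215761-104215789, minus strand, 8 bases before the upstream start site: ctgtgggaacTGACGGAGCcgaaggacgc
The AIFM2 match also contains TGACTCA, the letters bound by AP-1. A match describes letters only, and the counts per gene do not tell the start sites of TXNRD1 apart.

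Libraries held 14158315 to 17910782 estimated counts for bone marrow, 11549807 to 13218789 for lung and 12352474 for the primary tumour. Levels below are CPM, the usual depth-scaled unit of counts, with TMM factors that match libraries on their typical gene. All 8 Ewing sarcoma markers chosen, CD99 and NKX2-2 among them, had counts in all 9 libraries. Bone marrow and lung libraries did not overlap in depth, in the percent of reads assigned to human (77.59 to 79.1% against 72.67 to 77.34%), in unaligned reads (18.94 to 20.32% against 20.37 to 24.65%) or in reads from mitochondrial ribosomal RNA (0.0956 to 0.218% against 0.359 to 0.491%). The percent assigned to mouse did overlap, at 7.35 to 7.75% in bone marrow, 7 to 8.09% in lung and 7.45% in the primary library. Of the chosen markers of other cells, summed leukocyte markers were at 1.30 to 6.44 CPM in the marrow libraries and 2.76 to 35.5 CPM in lung with CSF1R at 0 in all 9 libraries, and summed red cell markers at 16.6 to 100.1 and 3.63 to 161 CPM with ALAS2 at 0 in all 9. Lung epithelial markers summed to 12.3 to 79.0 and 3.92 to 118.5 CPM with SCGB1A1 at 0 in all 9, endothelial markers to 23.6 to 27.9 and 25.4 to 30.1 CPM, and stromal markers to 86.4 to 348 and 152 to 399 CPM. The genes at 0 were single members, and other markers of the same lists had counts. HBA1 averaged 46.9 CPM in bone marrow and 38.3 in lung, EPCAM 35.6 and 38.0, and CD68 0.111 and 7.98. CDH5 averaged 23.7 and 26.0 CPM, DCN 132 and 144, and LUM 95.6 and 113. Whether such cells were present was not tested.

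Between bone marrow and lung, 1 of the 10 genes separated the sites and the rest overlapped. TXNRD1 was at higher levels in bone marrow, GPX4 was nearly level, and GCLM, SLC7A11 and NQO1 had higher means in lung with overlapping libraries. In edgeR's quasi-likelihood test with Benjamini-Hochberg adjustment over 17073 genes, 0 of the 10 passed an adjusted p of 0.05, a threshold that 0.00586% of all genes passed (1 gene, XPO5, named for that reason only). At an unadjusted p below 0.05 there was 1 member, TXNRD1, against 10.2% of all genes. DESeq2 also called 1, TXNRD1, against 3.37% of the 13868 genes it adjusted (2.16% with higher levels in bone marrow, 1.21% in lung), and limma voom called 0 against 0.0351% of all genes. With 10 members, 1 is close to the background share of unadjusted calls. The median log2 fold change of the 10 was -0.30, where positive means higher in bone marrow, and 4 of the 10 were above 0, beside a median of 0 and 49.9% of genes above 0 over all genes tested.

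**Figure D1:**
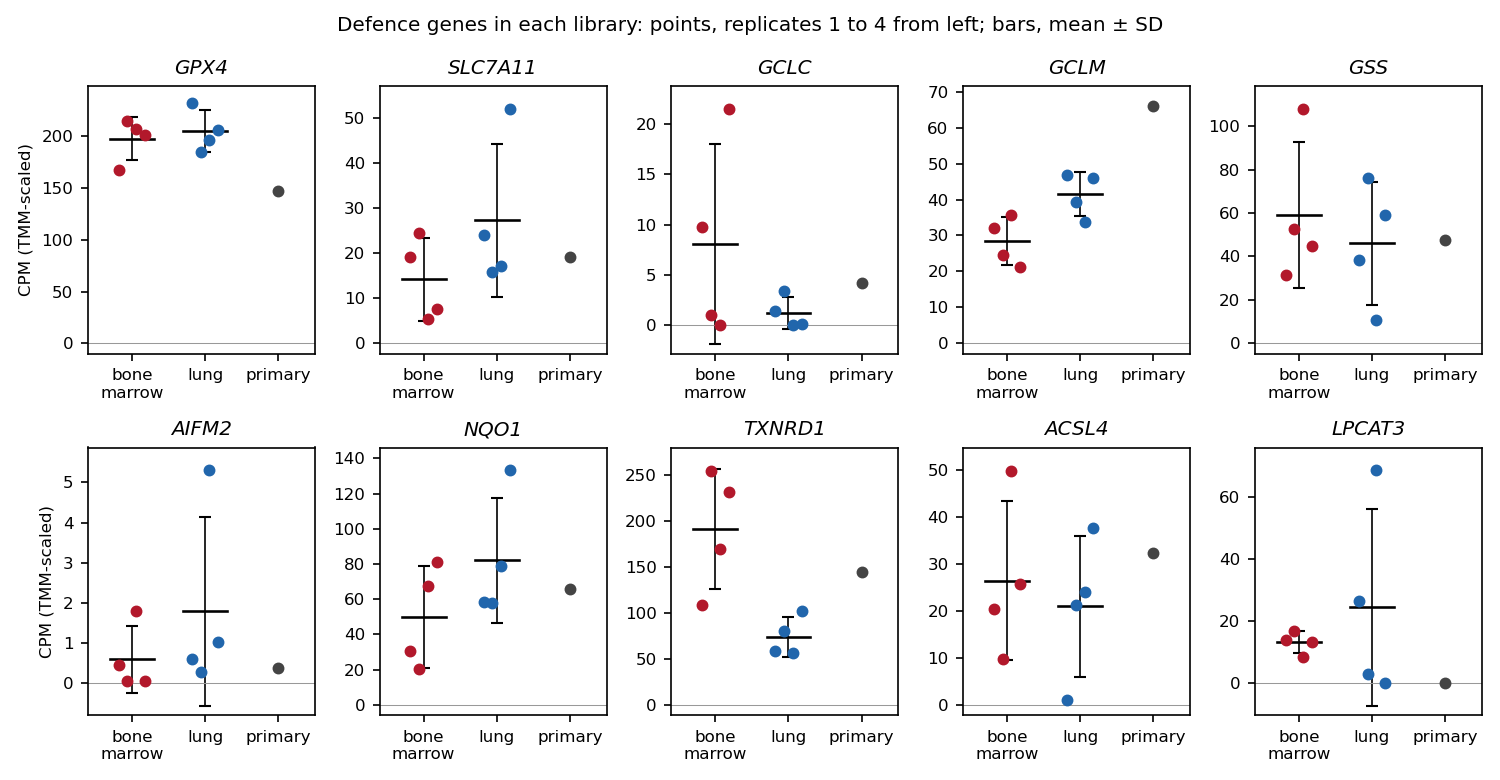
TMM-scaled CPM (vertical axes, linear) of the 10 genes in 4 bone marrow, 4 lung and 1 primary library; points are libraries, with replicates 1 to 4 from left to right, and black bars are the mean ± SD of 4. TXNRD1 is the panel in which all bone marrow points (108.9 to 254 CPM) lie above all lung points (55.9 to 101.9 CPM), while LPCAT3 and GCLC range from 0 upward within lung.

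TXNRD1, thioredoxin reductase (chromosome 12, 104215779 to 104350305, GRCh38, plus strand), was at 108.9, 254, 169.9 and 232 CPM in bone marrow replicates 1 to 4, at 58.1, 80.3, 55.9 and 101.9 CPM in lung replicates 1 to 4, and at 145 CPM in the primary library. Every bone marrow library was above every lung library, and the primary library lay within the bone marrow range. Among all genes tested, 2.81% were separated in this direction, 3.06% in the other and 5.87% in either. The means were 191 ± 65.5 CPM in the marrow libraries and 74.0 ± 21.6 CPM in lung (SD, n = 4 each), a 2.58-fold difference. The log2 fold change was 1.37 ± 0.33 (SE), with a 95% interval of 0.62 to 2.12 not adjusted for the number of genes. The edgeR adjusted p was 0.331, so the gene did not pass, and the DESeq2 adjusted p was 0.0136.

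The separation was narrow. Bone marrow replicate 1 stood at 1.07 times the level of lung replicate 4, and in CPM without TMM the order of these libraries turned, at 104.0 against 106.5. The DESeq2 call was kept in 4 of 8 fits that each left out 1 library and dropped out without bone marrow replicate 2 (DESeq2 adjusted p 0.0839), bone marrow replicate 4 (0.0859), lung replicate 1 (0.0551) or lung replicate 3 (0.0539). Bone marrow replicate 1 was the lowest bone marrow library for TXNRD1, so leaving it out raises the bone marrow mean. Without it alone the DESeq2 adjusted p was 0.000231. Without both bone marrow replicate 1 and lung replicate 3, the DESeq2 log2 fold change was 1.46 and its adjusted p 0.000474. Neither fit is a check on the call. The depth, human share, unaligned share and mitochondrial ribosomal RNA given above separated the sites as TXNRD1 did, and their part in the result was not tested. Fewer cells with a transcript and less of it per cell cannot be told apart in such bulk libraries. EID3, a coding gene on the same strand within the TXNRD1 locus, was at 1.69 CPM or less in every library. The processed pseudogene RPL18AP3 also overlaps the locus on that strand. No level was available for it, so sharing of reads with it was not checked.

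GPX4, the lipid peroxide reductase (chromosome 19, 1103926 to 1106791, plus strand), was at 167.6, 215, 207 and 202 CPM in bone marrow replicates 1 to 4 and at 233, 185, 196 and 206 CPM in lung replicates 1 to 4. The sites overlapped through most of their range, and bone marrow replicate 1 was the lowest of the 8. The log2 fold change was -0.05, with a 95% interval of -0.47 to 0.37. GPX4 was the least variable of the 10 genes. The SD of log2(CPM + 1) between libraries of a site, pooled over the sites, was 0.150, and 1.61% of the genes tested had a lower one.

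SLC7A11, the cystine importer (chromosome 4, 138164097 to 138242349, minus strand), was at 19.2, 24.5, 5.35 and 7.69 CPM in the marrow libraries and at 23.9, 15.9, 17.1 and 52.0 CPM in lung. The sites overlapped. Bone marrow replicates 3 and 4 were below all lung libraries, and lung replicate 4 stood above the other 8 libraries, the primary included. The log2 fold change was -0.94 with an interval of -2.37 to 0.49 (edgeR adjusted p 0.612). Without lung replicate 4 it was -0.40.

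Among the genes of glutathione synthesis, GCLM had its higher mean in lung and GCLC and GSS in bone marrow, all with overlapping libraries. GCLM, the modifier subunit (chromosome 1, 93885205 to 93909456, minus strand), was at 32.2, 24.5, 35.7 and 21.2 CPM in the marrow libraries and at 46.7, 39.4, 33.9 and 46.0 CPM in lung. The overlap rested on bone marrow replicate 3 and lung replicate 3, and the log2 fold change was -0.55 with an interval of -1.26 to 0.16 (edgeR adjusted p 0.539). GCLC, the catalytic subunit (chromosome 6, 53497341 to 53616970, minus strand), was at 9.77, 1.04, 0 and 21.5 CPM in the marrow libraries and at 1.36, 3.38, 0 and 0.0727 CPM in lung. Libraries of 1 site thus ran from no counts to 330 counts, and the interval of its log2 fold change, -1.47 to 6.95, was the widest of the 10, with estimates from 1.57 without bone marrow replicate 4 to 4.07 without lung replicate 2. GSS, glutathione synthetase (chromosome 20, 34928433 to 34956027, minus strand), was at 31.5, 52.5, 108.1 and 45.0 CPM in the marrow libraries and at 38.6, 76.3, 10.5 and 59.1 CPM in lung. Both the highest and the lowest GSS library were a replicate 3, of bone marrow and of lung. Its log2 fold change was 0.36 (interval -1.01 to 1.73) and -0.10 without bone marrow replicate 3.

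Of the quinone reductases, NQO1 (chromosome 16, 69706996 to 69726951, minus strand) was at 30.6, 20.6, 67.2 and 81.2 CPM in the marrow libraries and at 58.6, 58.0, 78.6 and 133.6 CPM in lung. Bone marrow replicates 1 and 2 were below all lung libraries and replicates 3 and 4 lay within their range, with a log2 fold change of -0.72 and an interval of -1.84 to 0.40. It was -0.36 without lung replicate 4, -0.46 without bone marrow replicate 2 and -1.06 without bone marrow replicate 4. AIFM2 (chromosome 10, 70098223 to 70132934, minus strand) was near the limit of detection. It held 1.06 to 26.2 estimated counts per library in bone marrow and 4.10 to 63.9 in lung, or at most 1.81 and 5.30 CPM, and lung replicate 3 alone gave 63.9 of these counts. Its log2 fold change of -1.58 became -0.08 without that library.

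Of the genes that supply peroxidisable lipids, ACSL4 (chromosome X, 109624244 to 109733403, minus strand) was at 20.4, 9.77, 49.7 and 25.6 CPM in the marrow libraries and at 1.02, 21.2, 23.9 and 37.6 CPM in lung. Lung replicate 1 was far below the other 8 libraries. The log2 fold change was 0.33 (interval -1.65 to 2.31), and it was -0.04 without lung replicate 1 and -0.17 without bone marrow replicate 3. LPCAT3 (chromosome 12, 6976186 to 7018510, minus strand) was at 14.1, 17.0, 8.48 and 13.4 CPM in the marrow libraries and at 26.6, 2.88, 68.7 and 0 CPM in lung. The bone marrow libraries were close to each other and lay inside the lung range, which ran from no counts to 830 estimated counts. Its log2 fold change of -0.89 became 0.44 without lung replicate 3, so no direction can be given. The locus overlaps EMG1 on the opposite strand (84.4 CPM in bone marrow, 107 in lung), and AIFM2 overlaps H2AFY2 likewise (140 and 129 CPM); whether counting used the strand is not stated, so reads of such pairs may be shared.

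**Figure D2:**
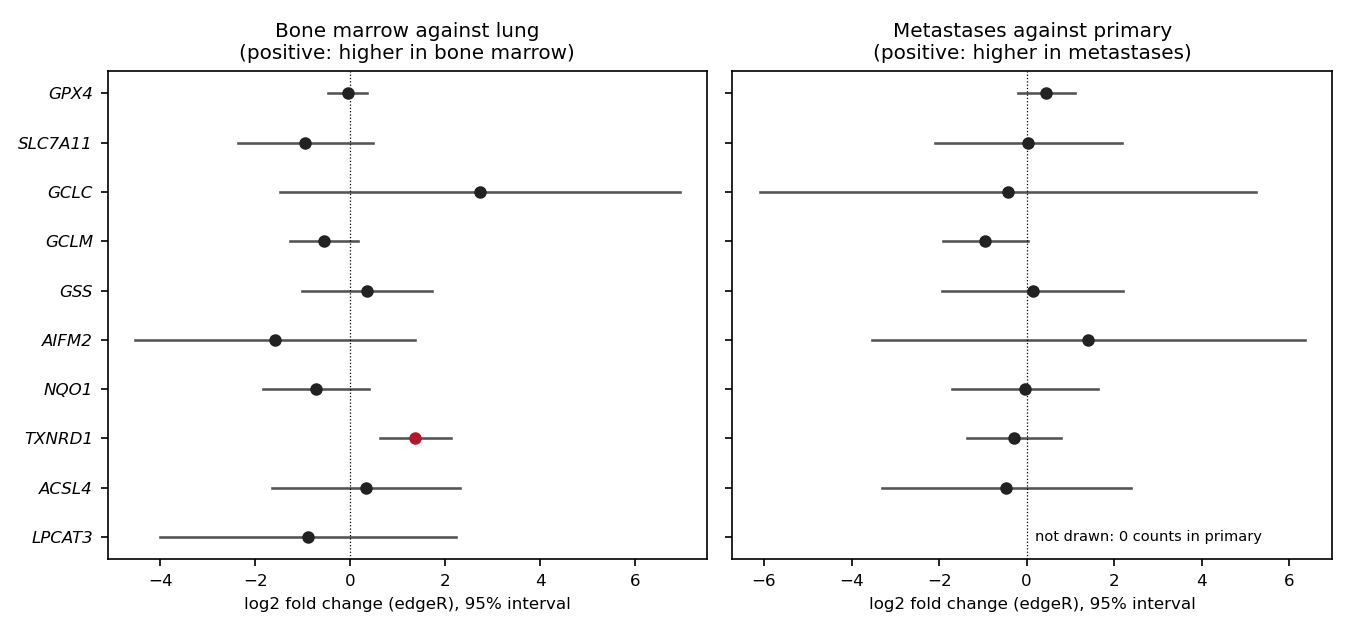
Log2 fold change from edgeR with its 95% interval, not adjusted for the number of genes, for bone marrow against lung (left) and for the mean of both metastatic sites against the primary library (right). The red point, TXNRD1 in the left panel, is the estimate drawn whose interval does not reach 0; LPCAT3 is not drawn on the right, since the primary library had 0 counts.

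How tightly libraries of a site agreed differed between the members. The pooled SD of log2(CPM + 1) ran from 0.150 for GPX4, 0.280 for GCLM and 0.482 for TXNRD1, all below the median of 0.652 over all genes tested, to 1.51 for ACSL4, 1.64 for GCLC and 1.97 for LPCAT3. LPCAT3 was more variable than 99.0% of genes tested and GCLC more than 95.6%. For 4 of the 10 genes (GCLC, AIFM2, ACSL4 and LPCAT3) the highest library of a site had at least 10 times the counts of the lowest, with 1 added to each, as did 44.3% of all genes tested.

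**Figure D3:**
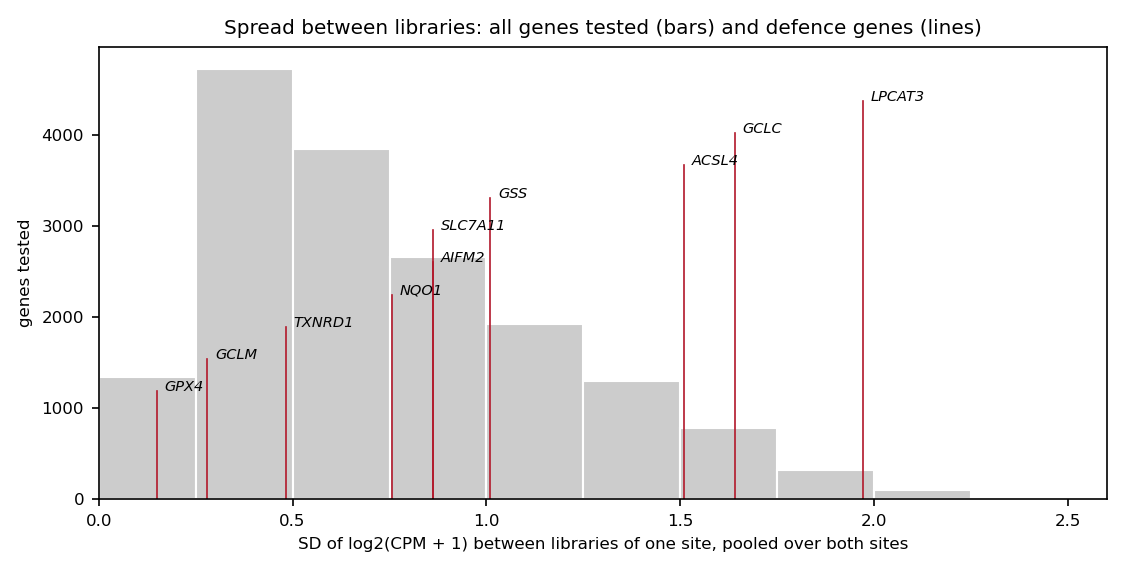
Histogram of the SD of log2(CPM + 1) between libraries of a site, pooled over bone marrow and lung (horizontal axis), for all 17073 genes tested (vertical axis, number of genes), with a red line for each of the 10 genes. GPX4 (0.150) and GCLM (0.280) lie at the low end and LPCAT3 (1.97) at the high end; line heights only separate the labels.

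Set per kilobase of the median coding transcript in GENCODE release 29, GPX4 was the most abundant of the 10 transcripts in all 9 libraries, at 194 to 269 CPM per kb in the metastases and 170.5 in the primary library. In bone marrow TXNRD1 (49.9 ± 17.1 CPM per kb) and NQO1 (49.2 ± 28.5, SD, n = 4 each) followed and overlapped, then GSS at 30.7 ± 17.5, which overlapped both. In lung the order was NQO1 at 81.0 ± 35.1, GSS at 23.9 ± 14.7 and TXNRD1 at 19.3 ± 5.63 CPM per kb, where NQO1 lay above TXNRD1 in all 4 libraries and GSS and TXNRD1 overlapped. GCLM (7.22 in bone marrow, 10.6 in lung), LPCAT3 (5.83 and 10.8) and ACSL4 (5.04 and 4.00) overlapped each other in bone marrow, while in lung GCLM lay above ACSL4 and LPCAT3 spanned both. GCLC (2.29 and 0.340), SLC7A11 (1.47 and 2.82) and AIFM2 (0.183 and 0.554) had the lowest means. The transcripts in use are not known. With the longest or the shortest annotated transcript the bone marrow mean of NQO1 would be 17.1 or 56.0 and that of TXNRD1 44.7 or 103.6 CPM per kb, so the order of these neighbours is not fixed, whereas GPX4 stays first at 197.4 or 249.

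**Figure D4:**
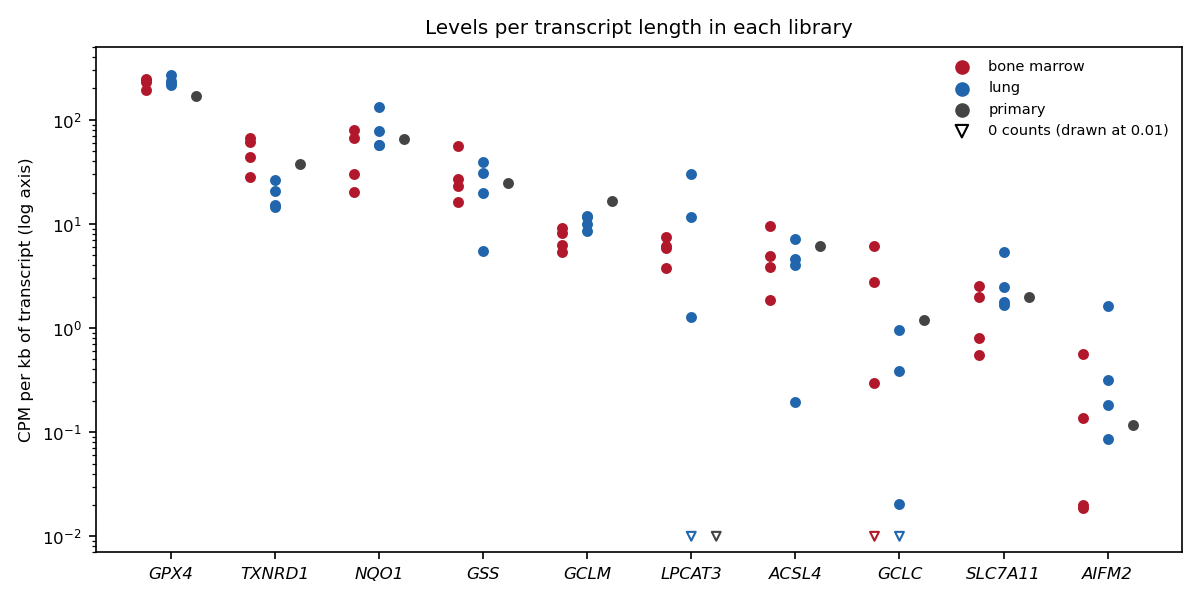
CPM per kilobase of median transcript length (vertical axis, log scale) for the 10 genes, ordered by their bone marrow mean; each filled point is 1 library and open triangles, drawn at 0.01, are libraries with 0 counts. GPX4 lies above all other genes in every library (170.5 CPM per kb in the primary, 194 or more in the metastases), and AIFM2 is at or below 1.63 CPM per kb.

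The primary tumour was represented by 1 library, so the comparison has no replicate check and asks only how this library sits against the 8 from metastases. GPX4 was lower and GCLM higher in the primary library than in all 8 metastases, and LPCAT3 had no counts in it. The primary library also stood outside all 8 in mitochondrial ribosomal RNA (0.0570% of reads, against 0.0956 to 0.491%) and in the summed level of the nuclear RNAs MALAT1, NEAT1 and MEG3 (5478 CPM, against 2498 to 4871 CPM), and the part of these in the results was not tested. The other 7 members lay within the range of the metastases. In edgeR, 0 of the 10 genes passed an adjusted p of 0.05 against 0% of all genes, and 1 (LPCAT3) had an unadjusted p below 0.05 against 4.79% of all genes (1.75% higher in metastases and 3.03% higher in the primary library). DESeq2 called 1 (LPCAT3) against 0.73% of the 13291 genes it adjusted (0.587% higher in metastases and 0.143% higher in the primary library), and limma voom called 0 against 0.281% of all genes. The primary library lay outside all 8 metastases for 2 of the 10 genes and for 17.6% of all genes tested. Over all genes the median log2 fold change stood at 0.17, with positive values higher in metastases, and values of single genes include that shift, which depends on the tool (-0.10 in limma voom). The median of the 10 members was 0.00081, with 5 of 10 above 0 beside 57.5% of all genes.

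GPX4 was at 147.6 CPM in the primary library and at 201 ± 19.5 CPM over the metastases (SD, n = 8), with 167.6 CPM as the lowest of them. For GPX4 the log2 fold change was 0.45 ± 0.29 (SE), its interval -0.20 to 1.10 and its edgeR adjusted p 0.9999. GCLM was at 66.0 CPM in the primary tumour, against 34.9 ± 9.16 CPM, the highest metastasis being lung replicate 1 at 46.7 CPM. Its log2 fold change was -0.94 ± 0.43 with an interval of -1.92 to 0.04 and an edgeR adjusted p of 0.9999. Among all genes, the primary library lay above all 8 metastases in 10.1% and below all 8 in 7.57%.

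LPCAT3 had 0 counts in the primary library, which allows up to 3 counts or 0.230 CPM, for counting error only. Against that floor the metastasis mean of 18.9 ± 21.8 CPM was at least 82.0-fold higher, and the bound was 51.1-fold without lung replicate 3, the library with the most LPCAT3. Lung replicate 4 had 0 counts as well, so the primary library was not outside the range of the metastases. The DESeq2 adjusted p was 0.0436. It passed in 3 of 8 fits that each left out 1 library, was lost without bone marrow replicate 2, 3 or 4 or lung replicate 3 (0.0620 to 0.0774), and had no adjusted p without lung replicate 1.

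The remaining members were at 19.1 CPM for SLC7A11, 4.22 for GCLC, 47.6 for GSS, 0.384 for AIFM2, 65.8 for NQO1 and 32.4 for ACSL4 in the primary library. Here the intervals of their log2 fold changes all held 0, and the narrowest of these, for NQO1, ran from -1.70 to 1.62. TXNRD1, at 145 CPM in the primary library, lay above all lung and above 1 of 4 bone marrow libraries.

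Other genes of the same pathways were read from 6 lists with 155 genes, of which 144 were tested. Between bone marrow and lung, 0 of the 144 passed in edgeR, 8 had an unadjusted p below 0.05 with higher levels in bone marrow and 4 with higher levels in lung, beside 6.33% and 3.88% of all genes. DESeq2 called 2 of them, beside 3.37% of all genes it adjusted, and limma voom 0, beside 0.0351% of all genes. Both DESeq2 calls were in the list of glutathione supply and use, where 25 of 39 genes tested had higher estimates in bone marrow (median log2 fold change 0.19). IDH1, a cytosolic source of the NADPH that keeps glutathione reduced, was at 509, 635, 759 and 914 CPM in the marrow libraries and at 344, 345, 371 and 278 CPM in lung. The sites did not overlap, and the primary library was at 396 CPM. IDH1 had a log2 fold change of 1.07 ± 0.21, with adjusted p-values of 0.298 in edgeR and 0.00319 in DESeq2. GLRX5, a mitochondrial glutaredoxin of iron-sulfur cluster assembly, was at 10.9, 7.45, 19.2 and 13.8 CPM in the marrow libraries and at 44.4, 26.9, 49.8 and 40.6 CPM in lung. The sites did not overlap either, and the primary library, at 11.3 CPM, lay within the bone marrow range. Of all genes tested, 5.87% did not overlap between the sites, in either direction. The log2 fold change was -1.66 ± 0.43, with adjusted p-values of 0.349 in edgeR and 0.00283 in DESeq2. Both DESeq2 calls were kept in all 8 fits that left out 1 library, and that of GLRX5 was lost without bone marrow replicate 1 and lung replicate 3 together (0.0631).

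The other lists held no gene called by edgeR, DESeq2 or limma voom between the sites, and the genes with the smallest p on either side are described. Where no overlap is given for a gene, the share over all genes tested was 5.87%. For selenoprotein synthesis (6 of 11 higher in bone marrow, median 0.0022), SEPHS2, which makes the selenium donor, was at 76.5 ± 38.3 CPM in the marrow libraries and 157 ± 12.4 CPM in lung with no overlap. TRNAU1AP, which binds the selenocysteine transfer RNA, was at 13.6 ± 7.04 and 1.48 ± 1.97 CPM. Their edgeR adjusted p-values were 0.441 and 0.485. For NRF2 regulators and targets (12 of 28 higher, median -0.18), CUL3 was at 32.3 ± 7.53 CPM in the marrow libraries and 9.83 ± 9.29 CPM in lung, and the heme oxygenase HMOX1 was at 0.586 ± 1.08 and 10.8 ± 10.2 CPM, each with no overlap (edgeR adjusted p 0.4996 and 0.475). The ubiquinone and tetrahydrobiopterin list (13 of 24 higher, median 0.02) is wider than the synthesis of these compounds. In it the sterol reductase DHCR7 was at 41.9 ± 29.4 and 20.1 ± 4.21 CPM and COQ7 of ubiquinone synthesis at 32.8 ± 11.1 and 61.8 ± 30.3 CPM, with overlap. For the list named peroxidation promoters (15 of 25 higher, median 0.15), the oxidoreductase POR was at 3.40, 0.122, 0 and 1.11 CPM in bone marrow replicates 1 to 4 with no counts in any lung library, and the phospholipase PLA2G6 at 0.160 ± 0.146 and 1.43 ± 1.86 CPM. The name of this list does not give the role of each gene in it, PLA2G6 included. Its counts and median therefore do not tell whether peroxidation is promoted at either site. In the thioredoxin and peroxiredoxin list 8 of 21 were higher in bone marrow (median -0.23). The peroxiredoxin PRDX1, named after its values were seen, was at 695.0 to 916.7 CPM in bone marrow and 920.7 to 1104 CPM in lung, with no overlap and a narrow gap, and the mitochondrial peroxiredoxin PRDX3, named likewise, at 3618 ± 1238 and 2640 ± 163 CPM with overlap. Their log2 fold changes were -0.36 ± 0.15 and 0.45 ± 0.22, with edgeR adjusted p-values of 0.486 and 0.494. List medians moved with single libraries. Leaving out each in turn gave -0.31 (without lung replicate 4) to -0.037 (without lung replicate 3) for thioredoxin and peroxiredoxin, -0.28 (without bone marrow replicate 3) to -0.030 (without bone marrow replicate 1) for NRF2, and 0.099 (without lung replicate 3) to 0.37 (without lung replicate 4) for glutathione. The range was 0.038 (without bone marrow replicate 3) to 0.24 (without lung replicate 2) for peroxidation promoters, -0.16 (without lung replicate 4) to 0.11 (without lung replicate 2) for selenoprotein synthesis, and -0.11 (without bone marrow replicate 3) to 0.16 (without bone marrow replicate 1) for ubiquinone and tetrahydrobiopterin, so the last pair had no stable sign.

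Against the primary library, 0 of the 144 genes passed in edgeR, 7 had an unadjusted p below 0.05, all with higher levels in metastases, beside 1.75% of all genes in that direction. DESeq2 called 1, beside 0.73% of all genes it adjusted, and limma voom 0, beside 0.281% of all genes. The DESeq2 call was MSRB1, a selenoprotein that reduces oxidised methionine, at 7.75 CPM in the primary library and at 16.9 to 62.5 CPM in the metastases, all 8 above it. Its log2 fold change was 2.49 ± 0.75, with adjusted p-values of 0.751 in edgeR and 0.0237 in DESeq2, and the DESeq2 call was lost without bone marrow replicate 2, bone marrow replicate 4 or lung replicate 2 (0.0536 to 0.0719). The numbers with higher estimates in metastases were 15 of 21 for thioredoxin and peroxiredoxin, 9 of 11 for selenoprotein synthesis, 20 of 24 for ubiquinone and tetrahydrobiopterin, 20 of 39 for glutathione supply and use, 13 of 25 for peroxidation promoters and 15 of 28 for NRF2 regulators and targets, beside 57.5% of all genes. In the primary library KEAP1 was at 3.53 CPM, below all 8 metastases (16.9 ± 6.69 CPM), and MAFK at 1.99 CPM, above all 8 (0.150 ± 0.172 CPM). Of all genes tested, the primary library lay below all 8 in 7.57% and above all 8 in 10.1%. SPR, of tetrahydrobiopterin synthesis, was at 22.4 CPM against 86.6 ± 38.9 CPM, LRP8 at 7.90 against 2.84 ± 2.43 CPM, EEFSEC at 0.0767 against 3.20 ± 4.53 CPM, and POR at 0.614 against 0.579 ± 1.20 CPM. PEX10 was at 0 in the primary library, beside 2.49 ± 3.67 CPM in the metastases, some of which were at 0 as well. For SPR, LRP8, EEFSEC, POR and PEX10 the primary library was thus not outside the range of the 8 metastases. Bone marrow replicate 1 was at 17.8 CPM for SPR and bone marrow replicate 2 at 8.79 CPM for LRP8.

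Genes whose pattern over the 9 libraries was most like that of GPX4 were BLVRA, RANGRF and ETFB, with Pearson r of log2(CPM + 1) of 0.943, 0.943 and 0.940 among 9644 genes ranked. Those most like TXNRD1 were CDK5RAP3 (0.973), TFAP2A (0.949) and SENP5 (0.946). CDK5RAP3 averaged 152 CPM in bone marrow, 68.7 in lung and 144 in the primary library, close to the levels of TXNRD1. With 9 libraries that share their depth and site structure, and 9644 genes ranked, these values are descriptions.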

How the data were processed

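Per the labels, 9 RNA libraries were prepared by template switching from few cells. The deposited expression values are estimated counts for each symbol, not scaled to depth, made with Trim Galore and Salmon on hg38 per the submitters' processing notes. A second deposited table gives the percent of reads assigned to each species and, by counting category, the fraction of reads; the sources used here do not say how the authors made these, nor the strand setting or annotation. All sample columns were used.

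Estimated counts were rounded, 12 vector rows were left out (at most 0.0133% of a library) and genes were filtered with filterByExpr, leaving 17073 of 34922. A single quasi-likelihood model (edgeR 4.0.16, R 4.3.3) held the 9 libraries in 3 groups, scaled by TMM, with two-sided tests and Benjamini-Hochberg adjustment over all genes. Standard errors are the absolute log2 fold change over the square root of F. DESeq2 1.42.0, limma 3.58.1 voom with quality weights, other scalings, filters, a replicate block and left-out libraries were alternatives. DESeq2 fits that left out libraries, CPM without TMM and the LPCAT3 bound with libraries left out were added after seeing the data. No 2 libraries agreed within sampling noise (chi-square per gene at least 71.1 over 36 pairs). On simulated data with the spread of the real libraries, 17064 genes were fitted, with 50 changed at each fold between bone marrow and lung. Of each 50, edgeR called 0% at 2-fold, 10% at 4-fold, 22% at 8-fold and 28% at 16-fold. The changed genes were drawn at random from all genes tested. These shares therefore do not hold for genes of low spread such as GPX4, GCLM and TXNRD1. With a biological coefficient of variation of 0.2 for every gene, the shares were 62% at 2-fold and 92% at 4-fold.

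The members and lists were chosen with earlier results of these data known. Every member was named. From each list, genes called by edgeR or DESeq2 were named, or else the gene of smallest p in each direction, and the 3 genes most like GPX4 and TXNRD1 by Pearson r. One gene that this rule names is not reported here. Coordinates and lengths are from GENCODE release 29 (GRCh38).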

Additional observations from a re-analysis of the deposited data

Results flagged for a closer look

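In 7 of 56 groups of 4 libraries, for the 10 members and the list genes named, the highest library stood apart from the other 3 by Dixon's test at the 95% level, where chance gives about 1 in 20 for normally distributed values. The test was run on CPM without a log scale, and several marked groups lie near 0. The 7 of 56 therefore cannot be set against that share. AIFM2 in lung replicate 3 was at 5.30 CPM, beside 0.281 to 1.02 CPM in the other lung libraries, and was the only member group so marked among 20. EEFSEC, the selenocysteine elongation factor, was at 11.4 CPM in lung replicate 2 against 0 to 0.363 CPM. LRP8, a selenoprotein P receptor, was at 8.79 CPM in bone marrow replicate 2 against 1.74 to 2.22 CPM. SPR was at 151 CPM in lung replicate 3 against 83.7 to 92.4 CPM. HMOX1 was at 2.20 CPM in bone marrow replicate 2 against 0 to 0.148 CPM, and at 25.9 CPM in lung replicate 2 against 4.39 to 7.99 CPM. MAFK was at 0.414 CPM in lung replicate 3 and at 0 in the other 3 lung libraries; beside 3 libraries at 0 any count in the other stands apart by this test, so this mark carries no information and should not be read against the chance share.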

How the results depend on the processing

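Of 20 member results (10 genes, both comparisons), 8 changed sign under at least 1 alternative, and 0 passed in edgeR under any. Genes called between bone marrow and lung numbered 1 as reported, 3 (MCL1, SLC30A1 and XPO5) with at least 5 CPM in at least 4 libraries, 468 in DESeq2, 6 in limma voom, 0 with the replicate block, 0 without bone marrow replicate 1 and lung replicate 3 together, and 0 to 0 with single libraries left out. Against the primary library DESeq2 called 97 and limma voom 48, where edgeR called 0. DESeq2 called 1 member in each comparison, and 2 and 1 genes of the pathway lists, where edgeR called 0. The stricter filter left 8 of the 10 members.

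Between the sites the log2 fold change of LPCAT3, -0.89 as reported, was 2.02 in limma voom, 0.98 with the replicate block, 0.40 without bone marrow replicate 1 and lung replicate 3 together, and -1.27 to 0.44 with single libraries left out; AIFM2 was at 0.017 without both libraries. With single libraries left out GPX4 ran from -0.097 to 0.038, GSS from -0.10 to 0.72 and ACSL4 from -0.17 to 0.81, while TXNRD1 stayed at 1.20 to 1.58 (edgeR adjusted p 0.207 to 0.577). Against the primary library SLC7A11, 0.04 as reported, was -0.055 with library size alone, -0.26 in limma voom and -0.27 to 0.18 with single libraries left out; NQO1 was 0.056 without both libraries and ran from -0.26 to 0.090, and GSS from -0.10 to 0.26. The cause of these changes was not tested.

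Same-numbered bone marrow and lung libraries did not deviate together (r from -0.0558 to 0.037 over genes), so the numbers were not taken as pairs; with the replicate block TXNRD1 was at 1.34 (edgeR adjusted p 0.686). The block could not be fitted against the primary library, which has no number of its own. The biological coefficient of variation was 0.925 as a common value over all genes tested, which does not describe abundant genes by themselves. How far depth limits the results was not tested. GCLC, AIFM2 and LPCAT3 rest on few or no counts in some libraries.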
